A study of Mus musculus with 18 samples.

Results

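Cultured mouse neurons exposed to homocysteic acid (HCA) and 1 µM adaptaquin were compared with neurons exposed to HCA and 0.1 µM adaptaquin. The arrays were chosen by their titles, which name the dose, the presence of HCA and the replicate number. This gave 3 arrays with HCA and 1 µM adaptaquin and 3 arrays with HCA and 0.1 µM adaptaquin, 6 of the 18 Illumina MouseRef-8 bead arrays in the study. All 6 arrays are of neurons that received both agents, so the comparison is between doses and not with neurons that had no adaptaquin or no HCA. For reference, the same change of dose was read in neurons without HCA (3 arrays at 1 µM adaptaquin and 3 at 0.1 µM). The remaining groups were 2 usable arrays with HCA and no adaptaquin and 3 untreated arrays, which entered the fit only through the shared estimate of the spread. A further HCA array is marked as an outlier in its title and was left out of the fit, although all 18 arrays entered the normalization. The labels name no brain region, strain, age, HCA concentration or time of exposure.

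Adaptaquin inhibits the HIF prolyl hydroxylases (the Egln proteins), enzymes that use oxygen, iron and 2-oxoglutarate to hydroxylate the HIF α subunits and so mark them for degradation through the von Hippel-Lindau protein. HCA is a glutamate analogue that blocks cystine uptake in immature neurons, which run short of glutathione and die by oxidative damage. In that setting ATF4, a transcription factor whose translation rises when amino acids are short, drives genes of amino acid uptake, serine and cysteine synthesis and glutathione breakdown, among them Chac1 and Trib3. The study's title names ATF4-dependent death, so the question here is which transcripts differ between a high and a low dose of the inhibitor while the neurons are under HCA.

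No transcript passed the test between the doses under HCA. Of 8922 genes tested with limma and the replicate number as a block, 0 had an adjusted p below 0.05 (0%), and 498 (5.58%) had an unadjusted p below 0.05, 207 of them higher (2.32%) and 291 lower (3.26%) at 1 µM. The smallest adjusted p was 0.0995, shared by Phlda3 and Cdkn1a. These were the 2 genes (0.0224%) with an adjusted p below 0.1, a looser threshold added after the data were seen. Differences were small throughout. Between the fifth and the 95th percentile, log2 differences ran from -0.26 to 0.23, with a median standard error of 0.11, and 86 genes differed by more than 0.5 and 0 by more than 1. The 2 groups did not overlap for 218 genes that were higher at 1 µM (2.44%) and 236 that were lower (2.65%). All levels below are log2 intensities and all differences are 1 µM minus 0.1 µM on that scale.

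The 2 genes with the smallest p were known targets of p53. This transcription factor responds to DNA damage and other stress by halting the cell cycle or starting cell death. Phlda3, a p53 target whose protein holds back AKT signalling, read 8.67, 8.74 and 8.27 in numbers 1, 2 and 3 at 1 µM, against 8.06, 7.88 and 7.51 at 0.1 µM. Each 1 µM array was above all 3 of the 0.1 µM arrays, and the difference was 0.74 ± 0.11 (SE; 95% interval 0.50 to 0.99; 1.67-fold; adjusted p = 0.0995). Cdkn1a, which encodes the cell cycle inhibitor p21, read 10.41, 10.47 and 9.99 at 1 µM, against 9.95, 9.88 and 9.51 at 0.1 µM. Its groups did not overlap either, and the difference was 0.51 ± 0.08 (95% interval 0.34 to 0.68; 1.42-fold; adjusted p = 0.0995). Array number 3 was the lowest of its group for both genes, at both doses. The replicate number therefore carried part of the spread that the block removes.

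Promoter windows of 300 bases, from 250 before to 50 after the start site, are shown for Phlda3 and Cdkn1a, for Pqlc3, a membrane protein gene with the largest rise between the same doses in neurons without HCA, and for Chac1, the glutathione-degrading enzyme of the ATF4 program described further on (chosen after its values were seen). They are RefSeq sequences of build GRCm38.p6, written 5′ to 3′ along the gene's strand, at chr1:135765835-135766134 (plus strand) for Phlda3, chr17:29090729-29091028 (plus strand, 1 of 2 windows listed) for Cdkn1a, chr12:17000069-17000368 (minus strand) for Pqlc3 and chr2:119350992-119351291 (plus strand) for Chac1. Capitals mark matches to a p53 half-site in Cdkn1a and to the ATF4 and CEBP response element core in Chac1.
Cdkn1a: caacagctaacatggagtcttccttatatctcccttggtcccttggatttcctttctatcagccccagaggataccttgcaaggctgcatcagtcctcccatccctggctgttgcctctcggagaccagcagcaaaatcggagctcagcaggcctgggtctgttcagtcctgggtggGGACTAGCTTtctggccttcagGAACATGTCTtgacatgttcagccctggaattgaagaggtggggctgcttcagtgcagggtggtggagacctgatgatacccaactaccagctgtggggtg
Phlda3: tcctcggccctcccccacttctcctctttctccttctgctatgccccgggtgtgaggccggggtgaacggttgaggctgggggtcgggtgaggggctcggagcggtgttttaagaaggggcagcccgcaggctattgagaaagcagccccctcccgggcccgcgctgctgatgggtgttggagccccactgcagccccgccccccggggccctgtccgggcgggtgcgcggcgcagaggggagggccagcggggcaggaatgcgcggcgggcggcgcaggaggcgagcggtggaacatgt
Pqlc3: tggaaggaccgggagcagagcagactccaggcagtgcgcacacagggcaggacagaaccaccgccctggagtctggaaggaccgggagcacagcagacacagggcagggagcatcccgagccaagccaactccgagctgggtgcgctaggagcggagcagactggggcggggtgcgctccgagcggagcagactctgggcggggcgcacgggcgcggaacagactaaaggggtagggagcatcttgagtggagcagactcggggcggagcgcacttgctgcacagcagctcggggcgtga
Chac1: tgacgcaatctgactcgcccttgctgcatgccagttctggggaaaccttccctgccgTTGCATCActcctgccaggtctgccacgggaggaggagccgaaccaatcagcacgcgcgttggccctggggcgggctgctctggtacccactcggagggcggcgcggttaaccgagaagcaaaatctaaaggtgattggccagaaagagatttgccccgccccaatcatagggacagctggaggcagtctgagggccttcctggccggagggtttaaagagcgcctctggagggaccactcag

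For genes with several windows, only the window whose start site lies farthest upstream was searched. In Cdkn1a that window held p53 half-sites that begin at positions -73 and -51 from this upstream start site. Distances to the other listed Cdkn1a start site are not given. The Chac1 window held the ATF4 core on the minus strand at position -193. No searched motif was found in the Phlda3 and Pqlc3 windows. The Phlda3 window ends in the letters gaacatgt, with which the Cdkn1a half-site at -51 begins. A match that runs past the edge of a window could not be scored. The motifs searched on both strands were TGATGNAA (ATF4 and CEBP core), CACGTG (E-box), ACGTG (hypoxia response core, which the E-box contains), TGACGTCA (cAMP response element), TGACNNNGC (antioxidant response element) and the p53 half-site consensus. The last was added after p53 targets were seen to lead. A p53 half-site was found in 6 of 16 p53 targets with a window (37.5%), in 4 of 18 genes that rose without HCA (22.2%), in 6.61% of the 7280 tested genes with a window and in 8.34% of all 27025 genes of the table. The ATF4 core was found in 8 of 27 ATF4 and CHOP targets with a window (29.6%), in 0 of 16 p53 targets, in 2.29% of tested genes and in 4.06% of all genes. The window of Tfrc, described below, held ACGTG at position -2, which 25.8% of tested genes hold. These matches describe letters in the windows and are not measured binding sites.

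Among 22 measured p53 targets, 17 values were positive and 5 negative, with a median of 0.20, beside 49.8% positive values and a median of 0.00 over all genes. None passed the test, and 7 had an unadjusted p below 0.05 in the positive direction and 1 in the negative direction. Of all genes, 2.32% had one in the positive and 3.26% in the negative direction. Ccng1, a cyclin G gene induced by p53, read 10.92, 10.96 and 10.65 at 1 µM, against 10.41, 10.37 and 9.96 at 0.1 µM. It differed by 0.60 ± 0.14 (adjusted p = 0.361), without overlap of the groups. Fas, a death receptor, read 6.62, 6.70 and 6.12 at 1 µM, against 6.10, 5.87 and 5.33 at 0.1 µM, again without overlap (0.71 ± 0.14, adjusted p = 0.263). Pidd1, whose protein activates caspase-2, read 6.66, 6.85 and 6.55 at 1 µM, against 6.03, 5.73 and 6.04 at 0.1 µM (0.75 ± 0.19, adjusted p = 0.435). Those 3 genes and Phlda3 and Cdkn1a had the largest positive values of the list. Gtse1, a regulator of p53 in dividing cells, differed by 0.33, Pmaip1 (Noxa) by 0.36, Trp53inp1 by 0.26, Polk, a translesion DNA polymerase, by 0.24, and Zmat3 by 0.17. Mdm2, the ubiquitin ligase that limits p53, differed by 0.11 and Bbc3 (Puma), a pro-death Bcl2 family member, by 0.10. Gadd45a had the lowest value, -0.27. Without background correction the list median was 0.12, and the dim members Fas, Pidd1 and Pmaip1 differed by 0.26, 0.30 and 0.11. The list was chosen with earlier results of these samples known, so its direction is no independent evidence.

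Averaged over the 22 genes, the p53 targets had list scores of 8.79, 8.85 and 8.71 on the 1 µM arrays, against 8.59, 8.56 and 8.49 on the 0.1 µM arrays. The 1 µM arrays lay above the 0.1 µM arrays in all 3 numbers, with list medians of 0.19, 0.22 and 0.15 for numbers 1, 2 and 3.

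**Figure D1:**
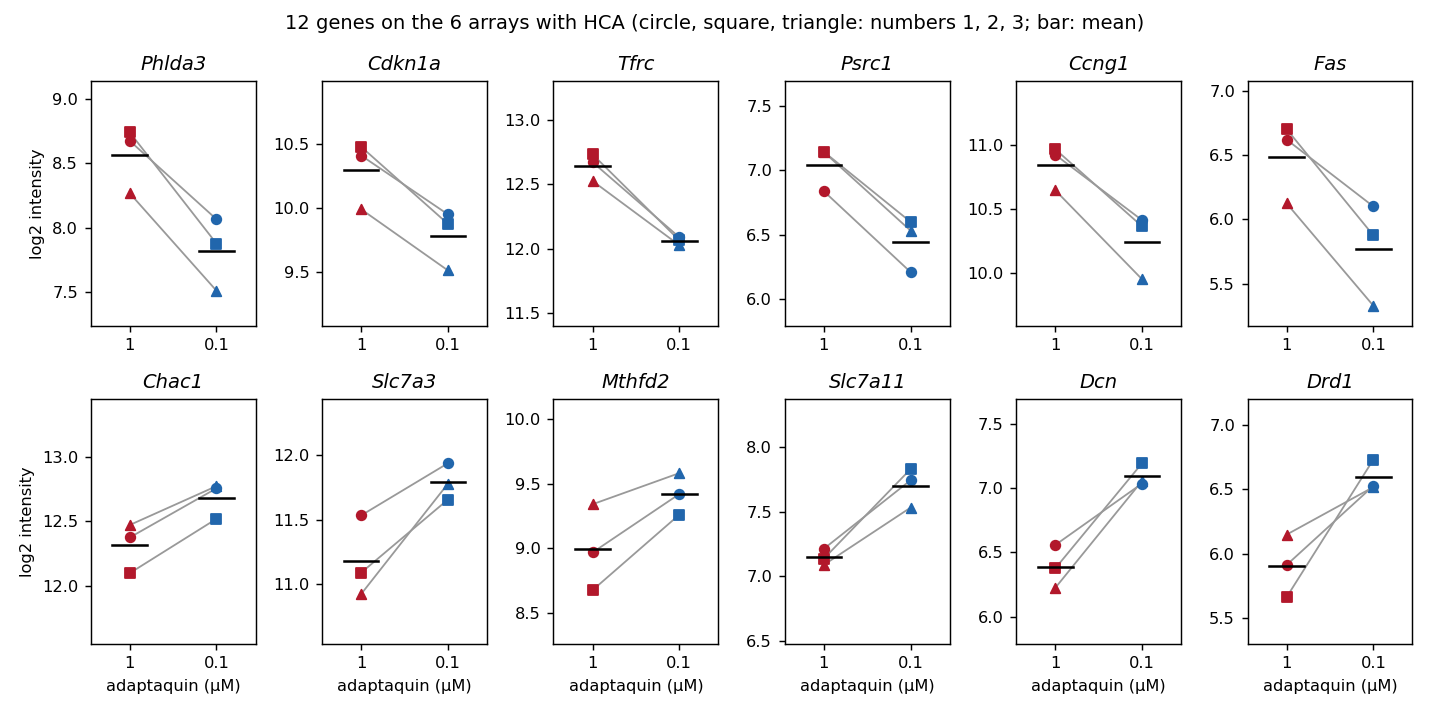
Log2 intensity of 12 genes on the 6 arrays with HCA, 1 µM adaptaquin left and 0.1 µM right, with lines joining arrays of the same number and bars at the means; every panel spans the same range. Phlda3, Cdkn1a, Tfrc, Psrc1, Ccng1 and Fas were higher at 1 µM in 3 of 3 numbers, and Chac1, Slc7a3, Mthfd2, Slc7a11, Dcn and Drd1 were lower in 3 of 3 numbers.

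Several leading genes lay outside the p53 list. Tfrc, the transferrin receptor that brings iron into cells and a known HIF and iron-regulated gene, read 12.67, 12.73 and 12.53 at 1 µM, against 12.09, 12.06 and 12.03 at 0.1 µM. The groups were well separated, and the difference was 0.58 ± 0.10 (95% interval 0.37 to 0.79; 1.50-fold; adjusted p = 0.112). Psrc1, a microtubule-binding protein gene, read 6.84, 7.14 and 7.14 at 1 µM, against 6.21, 6.60 and 6.53 at 0.1 µM (0.59 ± 0.10, adjusted p = 0.123). Pqlc3 averaged 7.03 ± 0.24 at 1 µM and 6.33 ± 0.34 at 0.1 µM (SD, n = 3 each), a difference of 0.71 ± 0.14 in limma's test (adjusted p = 0.226). Ddit4l, a REDD-family gene whose protein restrains the growth kinase complex mTORC1, read 8.48, 8.54 and 8.26 at 1 µM, against 7.83, 7.97 and 7.41 at 0.1 µM (0.69 ± 0.15, adjusted p = 0.293). Dcxr, a dicarbonyl and xylulose reductase, differed by 0.64 ± 0.14 (adjusted p = 0.293). None of these 5 genes had overlapping groups. Without background correction Pqlc3 differed by 0.32, Psrc1 by 0.28 and Dcxr by 0.41, while Tfrc differed by 0.57.

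Plaur, the urokinase receptor, was one of the dimmer genes, with 6.02, 6.54 and 6.34 at 1 µM, against 5.67, 5.30 and 5.28 at 0.1 µM. It was detected on 3 arrays at 1 µM and on 1 at 0.1 µM, and differed by 0.88 ± 0.17 (adjusted p = 0.226), or by 0.29 without background correction. Ndrg1, a stress and hypoxia-induced gene, read 9.54, 9.65 and 9.71 at 1 µM, against 9.26, 9.26 and 9.33 at 0.1 µM (0.35 ± 0.07, adjusted p = 0.287). Its small difference came with a small spread, and the groups did not overlap. Mapkapk3, a kinase downstream of p38, had the third smallest p (adjusted p = 0.106) but was above background on 1 array at 1 µM and on none at 0.1 µM. Its means were 5.41 and 4.70 in that order, and no fold is given. Pth1r, the parathyroid hormone receptor, was above background on 2 arrays at 1 µM and none at 0.1 µM, and was at least 1.21-fold higher at 1 µM (adjusted p = 0.226). For that bound the mean of the brighter group is set against the lowest signal of any detected probe on the other arrays, or against the probe's own signal if larger.

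Hspb3, a small heat shock protein gene, had the lowest value of the named genes in the main analysis. It read 6.47, 5.56 and 4.82 at 1 µM, against 6.51, 6.55 and 6.51 at 0.1 µM, and was detected on 1 array at 1 µM and on 3 at 0.1 µM. The difference was -0.90 ± 0.23 (adjusted p = 0.439), or -0.30 without background correction, and it came from numbers 2 and 3. Tnfrsf22, a TNF receptor family gene, was above background on no array at 1 µM and on 1 at 0.1 µM, with means of 4.86 and 5.60 in that order, and no fold is given. Its difference kept its sign under 19 of 20 alternative analyses, and the highest value among them was 0.30. Dcn, which encodes the matrix proteoglycan decorin, read 6.56, 6.37 and 6.22 at 1 µM, against 7.03, 7.19 and 7.05 at 0.1 µM. The groups were separate, with a difference of -0.71 ± 0.13 (95% interval -0.99 to -0.42; adjusted p = 0.201). Drd1, the D1 dopamine receptor, read 5.91, 5.66 and 6.15 at 1 µM, against 6.53, 6.73 and 6.52 at 0.1 µM, also without overlap (-0.68 ± 0.15, adjusted p = 0.287). Pdyn, the dynorphin precursor, read 6.92, 7.16 and 6.12 at 1 µM, against 7.46, 7.72 and 6.92 at 0.1 µM. Its groups overlapped, although each number was lower at 1 µM (-0.63 ± 0.14, adjusted p = 0.293). Tac1, the substance P precursor, read 7.48, 7.84 and 7.51 at 1 µM, against 7.71, 8.29 and 8.17 at 0.1 µM (-0.45 ± 0.09, adjusted p = 0.263), and its groups overlapped too. Without background correction the differences were -0.33 for Dcn, -0.26 for Drd1, -0.32 for Pdyn and -0.29 for Tac1.

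Because Drd1, Pdyn and Tac1 are all typical of striatal projection neurons, a list of striatal genes was read after these values were seen. Of its 14 measured members, 6 values were positive and 8 negative, with a median of -0.06. Drd2 (0.15), Ppp1r1b (0.21), which encodes DARPP-32, and Pde10a (0.07) had positive values. Ldoc1, a nuclear leucine-zipper protein gene, read 6.18, 6.18 and 6.25 at 1 µM, against 6.72, 6.90 and 6.65 at 0.1 µM (-0.55 ± 0.12, adjusted p = 0.287), without overlap. Clec2d was above background on no array at 1 µM and on 1 at 0.1 µM, with means of 4.89 and 5.58 in that order (adjusted p = 0.263). Tesc and Itpr2, which encode the calcium-binding protein tescalcin and an inositol trisphosphate receptor, were not above background at 1 µM and were at least 1.12-fold and 1.29-fold lower there (adjusted p = 0.361 and 0.385).

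Targets of ATF4 and its partner CHOP had mostly negative values under HCA. Of 33 measured targets, 29 values were negative and 4 positive, with a median of -0.21. None passed the test, 12 had an unadjusted p below 0.05 and a negative value, and 0 had one with a positive value. Of all genes, 3.26% had one with a negative value and 2.32% with a positive value. This list too was chosen with earlier results of these samples known, so its direction is no independent evidence. For 9 of the 33 the groups did not overlap and lay lower at 1 µM, beside 2.65% of all genes. The list scores were 9.39, 9.40 and 9.44 on the 1 µM arrays, against 9.58, 9.58 and 9.70 on the 0.1 µM arrays. Every 1 µM array lay below every 0.1 µM array, and the list medians of numbers 1, 2 and 3 were -0.22, -0.20 and -0.25. Without HCA the same 33 genes had a median of -0.10, with scores of 8.36 to 8.40 at 1 µM and 8.47 to 8.55 at 0.1 µM. Under either dose with HCA the list stayed above its level in all groups without HCA.

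Chac1 breaks glutathione down to a cysteinyl dipeptide. It read 12.38, 12.10 and 12.47 at 1 µM, against 12.76, 12.52 and 12.77 at 0.1 µM. The groups were separate and each number was lower at 1 µM, with a difference of -0.37 ± 0.08 (95% interval -0.54 to -0.19; 0.774-fold; adjusted p = 0.293). Slc7a3, a carrier of arginine and lysine, had one of the lowest values of the list, with 11.53, 11.09 and 10.92 at 1 µM, against 11.94, 11.66 and 11.78 at 0.1 µM (-0.61 ± 0.14, adjusted p = 0.378). Slc7a11, the cystine carrier that HCA inhibits, read 7.21, 7.14 and 7.09 at 1 µM, against 7.75, 7.83 and 7.53 at 0.1 µM. Its groups were well apart (-0.56 ± 0.16, adjusted p = 0.567; -0.32 without background correction), and Slc3a2, the heavy chain that pairs with it, differed by -0.25. Mthfd2, a mitochondrial enzyme of one-carbon metabolism, read 8.97, 8.67 and 9.34 at 1 µM, against 9.42, 9.26 and 9.58 at 0.1 µM (-0.43 ± 0.10, adjusted p = 0.385). Its groups overlapped because the spread between numbers was large, while each number was lower at 1 µM.

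Of the other members, Nupr1, a stress-induced chromatin protein gene, differed by -0.39, the secreted stress protein gene Stc2 by -0.39, the translation repressor gene Eif4ebp1 by -0.34, and Shmt2 and Psat1, enzymes of glycine and serine synthesis, by -0.29 and -0.22. Cth, which makes cysteine from cystathionine, was not above background at 1 µM and was at least 1.15-fold lower there (means 5.32 and 5.91, adjusted p = 0.607). Trib3 was above background on 2 arrays at 0.1 µM and none at 1 µM, and no fold is given. Atf4 itself, controlled mainly by translation, differed by -0.27 ± 0.16 (adjusted p = 0.958) and the CHOP gene Ddit3 by -0.18 ± 0.12 (adjusted p = 0.997). Atf3 differed by -0.02, Asns (asparagine synthetase) by -0.11 and Phgdh (the first enzyme of serine synthesis) by -0.03. Cebpg, at 0.36, and the death receptor gene Tnfrsf10b, at 0.31, had the largest positive values. Their unadjusted p in limma's test was 0.0929 and 0.412, and Cebpg was dim, with a mean level of 5.41. Tnfrsf10b is also a p53 target. Of 19 aminoacyl-tRNA synthetases, which charge tRNAs with amino acids and include further ATF4 targets, 15 values were negative and 4 positive, with a median of -0.12. An unadjusted p below 0.05 was found for 1 of the 19, beside 5.58% of all genes.

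**Figure D2:**
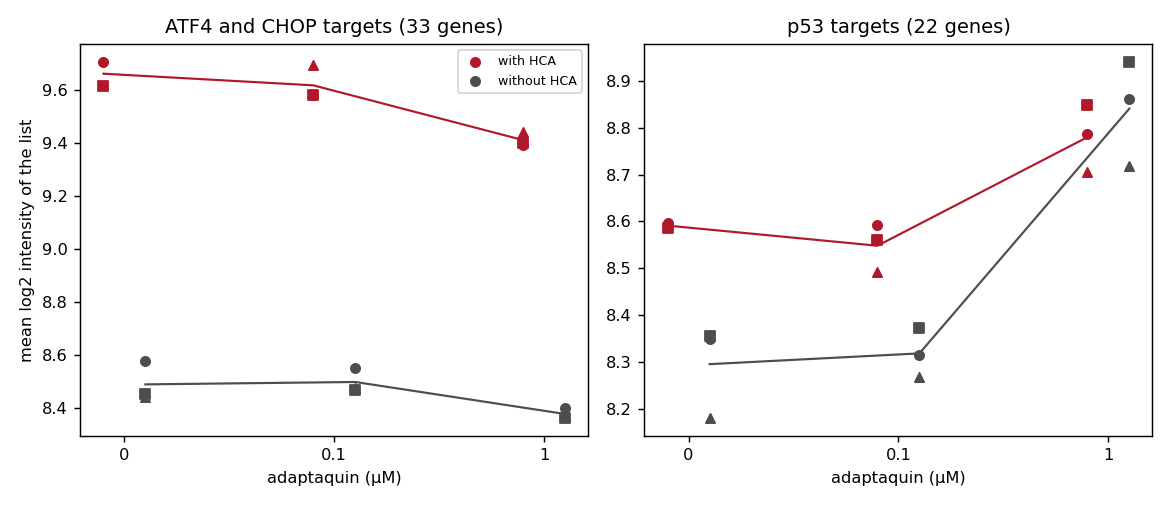
Mean log2 intensity of the 33 ATF4 and CHOP targets (left) and the 22 p53 targets (right) on each array against adaptaquin dose, with HCA in red and without HCA in grey; marker shapes stand for replicate numbers and lines join group means. With HCA the ATF4 score lay between 9.39 and 9.44 at 1 µM, against 9.58 to 9.70 at 0.1 µM, and the p53 score between 8.71 and 8.85 at 1 µM, against 8.49 to 8.59 at 0.1 µM.

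The targets of HIF, the factor whose degradation adaptaquin is meant to stop, were spread around 0. Of 32 measured HIF targets, 18 values were positive and 14 negative, with a median of 0.02. An unadjusted p below 0.05 was found for 3 of them, all positive, beside 2.32% of all genes. Tfrc (0.58) and Ndrg1 (0.35) led. Pgk1, a glycolytic enzyme, differed by 0.24 ± 0.18, P4ha1, a collagen prolyl hydroxylase subunit, by 0.21 ± 0.16, and Vegfa, the vascular growth factor gene, by -0.20 ± 0.10 (adjusted p = 0.878). Slc2a1 (0.03), Ldha (-0.05), Pdk1 (0.05), Aldoa (0.04) and Gapdh (0.03) were near 0. Of the hydroxylases themselves, Egln1 differed by -0.06 ± 0.15, Egln2 by -0.04 ± 0.13 and Egln3, a gene that HIF induces, by 0.19 ± 0.12. Hif1a differed by -0.03 ± 0.18. Of 11 genes of the hydroxylase pathway 9 values were negative, the lowest being -0.27 for Ogfod1, a related hydroxylase of a ribosomal protein. The 95% interval was -0.39 to 0.28 for Egln1 and -0.41 to 0.35 for Hif1a. Of 24 other 2-oxoglutarate dioxygenases the median was 0.00, with values from -0.40 for the RNA demethylase Alkbh5 to 0.27 for Asph.

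Genes of iron and oxidative defence showed single members apart from their lists. Of 22 iron genes, 14 values were positive and 8 negative (median 0.04), and apart from Tfrc none exceeded 0.20. The ferritin genes Fth1 and Ftl1, which store iron, differed by -0.08 and 0.03, and Ireb2, an iron-sensing regulator of Tfrc mRNA, by 0.01. Of 28 targets of NRF2, the factor of the antioxidant response, 12 values were positive and 16 negative (median -0.03). Ephx1, an epoxide hydrolase, led with 0.49 ± 0.14 (8.27, 8.05 and 7.65 at 1 µM, against 7.86, 7.44 and 7.21 at 0.1 µM; adjusted p = 0.567). Hmox1, which breaks down heme, differed by -0.04 ± 0.19 and Nqo1, a quinone reductase, by -0.17. Of 18 glutathione and cystine genes, 5 values were positive and 13 negative (median -0.05), and the lowest, Cth, Slc7a11 and Chac1, also stand in the ATF4 list. The scores of this list ran from 8.743 to 8.796 at 1 µM and from 8.875 to 8.932 at 0.1 µM, without overlap. For 4 of the 18 the groups did not overlap and lay lower at 1 µM, beside 2.65% of all genes. Gpx7, a peroxidase of the endoplasmic reticulum, differed by -0.33 ± 0.08 (adjusted p = 0.423) and Gclm, a subunit of the enzyme that starts glutathione synthesis, by -0.06. Of 14 metallothionein and zinc transporter genes the median was -0.02, with Mt2 at -0.33 and Mt1 at 0.12.

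No member of the further lists passed the test. Of 24 immediate early genes, which neurons switch on with activity, 16 values were negative and 8 positive (median -0.13), with Bdnf at -0.50 ± 0.20 (adjusted p = 0.839), Fos at -0.42 ± 0.22 (adjusted p = 0.891) and Npas4 at -0.38 ± 0.23 (adjusted p = 0.961). The median of this list was 0.00 without array number 3 at 0.1 µM. Arc (0.06) and Junb (0.06) were near 0. Of 17 genes of cholesterol synthesis, 13 values were positive and 4 negative (median 0.13, or 0.07 without array number 1 and 0.08 without array number 3 at 0.1 µM), and the list scores ran from 10.17 to 10.26 at 1 µM and from 10.07 to 10.14 at 0.1 µM, without overlap. Insig1, a feedback regulator of that pathway, read 8.74, 9.44 and 8.60 at 1 µM, against 8.34, 8.43 and 8.35 at 0.1 µM, so that most of its difference came from number 2 (0.55 ± 0.30, adjusted p = 0.913). Of 16 brakes on mTORC1 the median was -0.06 (0.04 without the arrays numbered 2), from Ddit4l at 0.69 to Trib3 at -0.36. Trib3 was not above background at 1 µM, and its difference was -0.10 without background correction. Of 16 endoplasmic reticulum chaperone genes 12 values were negative (median -0.07), of 14 heat shock genes the median was -0.06, and of 22 Bcl2 family and death genes 0.00. Of 9 interferon-induced genes the median was -0.11, and 0.10 without array number 3 at 1 µM.

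**Figure D3:**
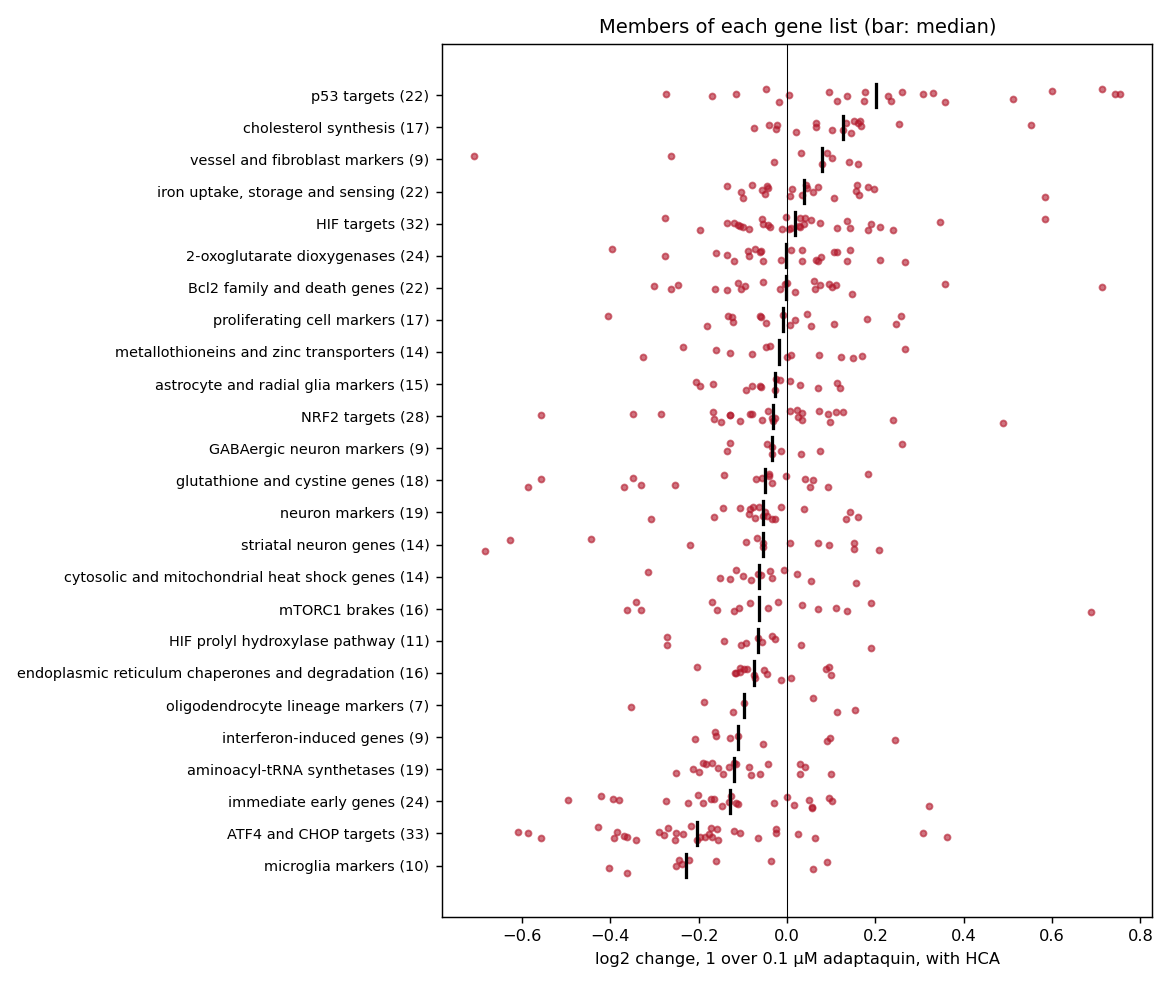
Log2 difference between 1 and 0.1 µM adaptaquin with HCA for the measured members of each gene list, ordered by list median (black bar); numbers in brackets are genes measured. The p53 targets had the highest median (0.20), and the ATF4 and CHOP targets (-0.21) and the microglia markers (-0.23, or -0.10 without the arrays numbered 2) the lowest; 0 members of any list passed the test.

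The cultures carried neuronal markers at both doses. Map2, Tubb3, Syt1, Stmn2, Dcx, Slc17a7, Slc17a6 and Gad1 were detected on 6 of 6 arrays, while the probe for Snap25 was detected on none. Of 19 neuron markers, 15 values were negative and 4 positive (median -0.05). Of 10 microglia markers, 8 were negative and 2 positive (median -0.23), with list scores of 6.95, 6.70 and 6.79 on the 1 µM arrays, against 6.97, 7.05 and 6.95 on the 0.1 µM arrays. C1qc, a complement gene of microglia, had the smallest p of these (-0.36 ± 0.11, adjusted p = 0.607), while Tyrobp (0.06) and Trem2 (0.09) were positive. Of the defining markers, Aif1, Cx3cr1 and Tyrobp were detected on 6 of 6 arrays and Itgam on 0 of 6. The list median was -0.10 without the arrays numbered 2 and -0.12 without array number 2 at 1 µM. In numbers 1, 2 and 3 the microglia list medians were -0.01, -0.36 and -0.13, against -0.22, -0.20 and -0.25 for the ATF4 targets. The part of microglia in the ATF4 result was not tested. Of the astrocyte markers Gfap was detected on 1 of 6 arrays, Aqp4 on 2 of 6, and Slc1a3 and Aldh1l1 on 6 of 6, and the 15 members had a median of -0.03. In the oligodendrocyte lineage Mbp was detected on 6 of 6 arrays, with means of 8.18 at 1 µM and 8.37 at 0.1 µM, Olig1 read 10.03 to 10.30 at 1 µM and 10.06 to 10.54 at 0.1 µM, and Mog and Olig2 were detected on 0 of 6 arrays. Among 9 vessel and fibroblast markers only Dcn and Flt1 lay below -0.2 (median 0.08), and among 17 genes of dividing cells the median was -0.01, with Pcna at -0.41. In bulk RNA fewer cells of a type and less RNA per cell cannot be told apart.

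The same step in dose was next read without HCA, on other arrays than the comparison above. The estimate of the spread per gene was the same, and the HCA arrays contributed to it. There 21 of 8922 genes passed (0.235%), 18 higher (0.202%) and 3 lower (0.0336%) at 1 µM, and 488 (5.47%) had an unadjusted p below 0.05. Without the replicate block 11 genes passed, and leaving out all arrays numbered 1, 2 or 3 left 4, 1 or 7. Cdkn1a rose by 1.53 ± 0.08 (adjusted p = 8.38e-07), with 10.75, 10.76 and 10.17 at 1 µM, against 9.18, 9.07 and 8.86 at 0.1 µM. Pqlc3 rose by 1.62 ± 0.14 (adjusted p = 0.000127), Phlda3 by 1.42 ± 0.11, Ephx1 by 1.37 ± 0.14, Ddit4l by 1.34 ± 0.15, Dcxr by 1.21 ± 0.14, Ccng1 by 1.16 ± 0.14 and Tfrc by 1.07 ± 0.10. The 3 genes that fell were Ldoc1 (-0.66), Arrdc4 (-0.54), an arrestin-family gene tied to glucose metabolism, and Cpne4 (-0.49), a calcium-dependent membrane-binding protein gene.

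Under HCA the 18 risers had smaller values. Of the 18, 16 were positive, 13 were positive in 3 of 3 numbers, beside 12% of all genes, and 10 had groups that did not overlap, beside 2.44% of all genes that were higher without overlap. Their median was 0.55 with HCA and 1.01 without, and for all 18 the value with HCA was below that without. As a share of the value without HCA, the median was 46.9%. These genes were picked for their values without HCA, so the smaller values with HCA are a description and no test of the difference. The pick also used the spread shared with the HCA arrays and so favours genes that vary little there. The counts beside the shares of all genes are therefore a description too. The 3 fallers were negative with HCA too (median -0.30, against -0.54 without). Across all 8922 genes the dose effects with and without HCA had a Pearson r of 0.22 and a Spearman rho of 0.18, given as a description, since genes are not independent replicates.

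**Figure D4:**
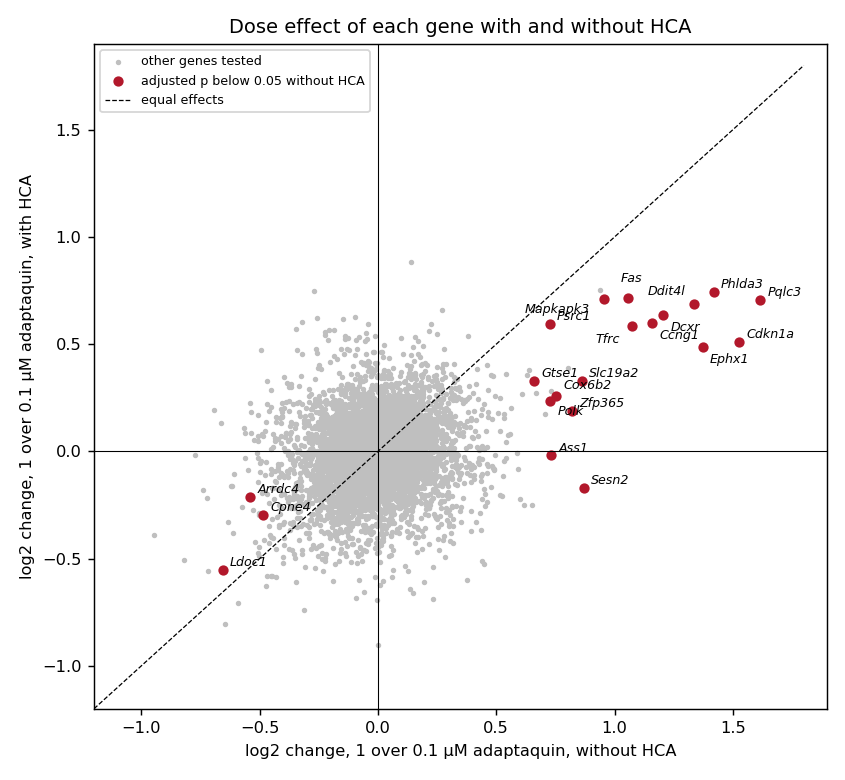
Log2 difference between 1 and 0.1 µM adaptaquin with HCA (vertical) against the same difference without HCA (horizontal) for 8922 genes; red points are the 21 genes with an adjusted p below 0.05 without HCA, and the dashed line marks equal effects. All 18 risers lie below the line, with values of -0.17 (Sesn2) to 0.74 (Phlda3) under HCA.

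The test of the difference between the dose effects found 1 gene, Cdkn1a (0.0112% of genes, with 320, or 3.59%, at an unadjusted p below 0.05). Its rise of 1.53 without HCA was set against 0.51 with HCA, a difference of -1.02 ± 0.11 (adjusted p = 0.00557). The mean level was 10.29 at 1 µM and 9.78 at 0.1 µM with HCA, and 10.56 at 1 µM and 9.03 at 0.1 µM without. At 0.1 µM the arrays with HCA (9.51 to 9.95) lay above those without HCA (8.86 to 9.18), while at 1 µM the arrays with HCA (9.99 to 10.47) and without HCA (10.17 to 10.76) overlapped. The call was lost without the replicate block (adjusted p = 1), under median scaling (0.188), with the mean over a gene's probes (0.0965) and without the arrays of any 1 number (0.215 to 1), while the difference stayed between -1.12 and -0.88.

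Sesn2, a sestrin that restrains mTORC1 and a target of both ATF4 and p53, took opposite signs. With HCA it read 7.42, 7.72 and 7.53 at 1 µM, against 7.72, 7.68 and 7.79 at 0.1 µM (-0.17 ± 0.14, adjusted p = 0.997). Without HCA it rose by 0.87 ± 0.14 (adjusted p = 0.0144), with 6.91, 7.07 and 6.59 at 1 µM, against 5.87, 6.12 and 5.96 at 0.1 µM. The difference of -1.04 ± 0.19 did not pass (adjusted p = 0.56). Ass1, which makes argininosuccinate on the way to arginine, differed by -0.02 ± 0.13 with HCA and rose by 0.73 ± 0.13 without (adjusted p = 0.0487), again with a difference that did not pass (adjusted p = 0.965). For Pqlc3 (-0.91 ± 0.20, adjusted p = 0.772) and Ephx1 (-0.88 ± 0.20, adjusted p = 0.772) it did not pass either. Plaur and Pth1r differed by 0.14 and -0.10 without HCA, below their values with HCA, and neither difference passed (adjusted p = 1 and 0.799).

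**Figure D5:**
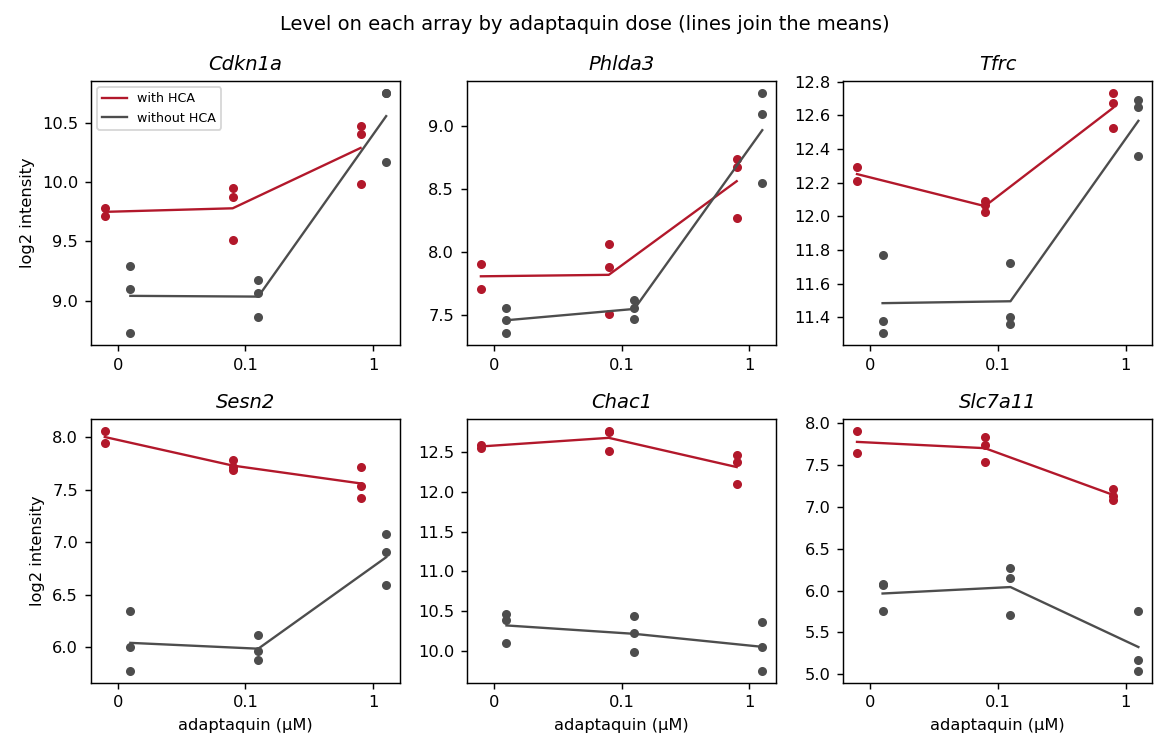
Log2 intensity of 6 genes on each array against adaptaquin dose, with HCA in red (2 arrays at 0 µM, 3 at the other doses) and without HCA in grey (3 arrays per dose); lines join group means. At 1 µM the mean of Tfrc was 12.64 with HCA and 12.57 without, and that of Phlda3 was 8.56 with HCA and 8.96 without; the means of Sesn2, Chac1 and Slc7a11 were higher with HCA at every dose.

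Over the 17 arrays, with group-independent replicate means removed, the genes most like Phlda3 were Pqlc3 (Pearson r = 0.967), Gtse1 (0.961) and Slc19a2, a thiamine transporter (0.959). The genes most like Dcn were Ldoc1 (0.937), Cidea, a lipid droplet protein gene (0.879), and Arrdc4 (0.861). These correlations share the arrays and groups of the fit and are given as a description.

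Between 42.8% and 47.6% of probes were detected on the 17 arrays of the fit, whose upper quartile of intensity ranged over 333 to 563. The quartile was 506, 333 and 402 on the 1 µM arrays with HCA, against 474, 378 and 419 on the 0.1 µM arrays with HCA, so that the arrays numbered 2 were the dimmest of both groups. Nothing in the labels says that replicates came from separate cultures, so the p-values measure only how these samples vary, and that variation may be technical. Alternative analyses changed the count of calls under HCA. Without background correction 4 genes passed (Tfrc, Cdkn1a and Phlda3 higher and Slc7a3 lower), with an intensity trend and a robust prior 3 passed (Tfrc, Cdkn1a and Phlda3), and with the mean over a gene's probes 1 passed (Phlda3).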

How the data were processed

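RNA from the cultured neurons was measured on Illumina bead arrays from biotinylated cRNA. The deposited main table gives, per the file headers, the intensity of every probe on the 18 arrays with no normalization between arrays. Beside each intensity the authors gave a detection p-value. A second table deposited by the authors holds log2 values of 17 arrays, which equalled a quantile normalization of the log2 intensities to within 5e-09 and served as an alternative. Its column for the titled outlier, 1 column, was empty and not used. For scanner software and upstream filters, the sources used here give nothing.

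The neqc function of limma 3.58.1 (R 4.3.3) estimated background with the detection p-values, added an offset of 16, quantile-normalized the 18 arrays and took log2. Probes with a detection p-value below 0.01 on at least 2 of 17 arrays were kept (12991 of 25697), and the brightest probe stood for each of 8922 genes. Symbols came from the arrays' probe annotation, in which 23978 probes had 1 symbol and 1719 none, and 23962 matched a RefSeq gene.

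A linear model with 6 group coefficients and the replicate number as a block was fitted to 17 arrays and moderated by limma's empirical Bayes method (9 residual and 3.487 prior degrees of freedom). Tests were two-sided, with Benjamini-Hochberg adjustment inside a contrast and a threshold of 0.05; intervals are 95%. Replicate numbers paired the arrays. Residuals of arrays with the same number correlated between 0.24 and 0.63 over 40 pairs, against -0.46 to 0.06 over 80 pairs of other numbers. List scores average the log2 intensities of the measured members array by array. Named genes were the 5 with the smallest p under HCA in each direction and further genes next by p in each direction. Called members and up to 4 with the largest change of each list were named too. So were all genes called without HCA and the 5 largest called rises and falls of the other contrasts. A fixed set of 22 genes came from the ATF4, p53, HIF, iron and activity responses. Many named genes were thus picked for a small p or a large change in the comparison under HCA. Some list members are also given as short values. Members and lists were chosen with earlier results of these data known. The number of arrays limits the precision.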

Additional observations from a re-analysis of the deposited data

Results flagged for a closer look

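One result stood out by a test between conditions. The difference between the dose effects with and without HCA passed for Cdkn1a, the p21 gene, at -1.02 on the log2 scale (SE 0.11, adjusted p = 0.00557 in limma's test over 8922 genes). It was higher at 1 µM than at 0.1 µM in 3 of 3 numbers with HCA (0.46, 0.60 and 0.48) and in 3 of 3 numbers without HCA (1.58, 1.69 and 1.31). The call did not hold under every alternative, as given below.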

How the results depend on the processing

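The count of genes called between the doses under HCA was 0 in the fit with the replicate block and 0 in the fit without it (no replicate block, 234 genes at an unadjusted p below 0.05), and it stayed at 0 in the 9 fits that left out a number or a single array (327 to 638 at an unadjusted p below 0.05). It was 4 without background correction, 3 with an intensity trend and robust prior, 1 with the mean over probes and 2 at an adjusted p below 0.1. The authors' log2 table gave the same 4 genes because it equals the setting without background correction to within 5e-09. It is therefore no separate analysis, although it is counted among the alternatives. The count without HCA, 21, was 11 without the replicate block and 1 to 7 without the arrays of 1 number, fits with fewer samples. The count of differing dose effects, 1, was 0 without the replicate block, 0 with median scaling, 0 with the mean over probes and 0 without the arrays of any 1 number. For Cdkn1a that difference was -1.02 without the block (adjusted p = 1), -0.96 with median scaling (0.188), -1.12 with the mean over probes (0.0965) and -1.11 to -0.96 without 1 number (0.215 to 1). The cause was not tested for the other changes.

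Of 139 named genes, 4 passed under at least 1 alternative (Tfrc, Cdkn1a, Phlda3 and Slc7a3), 120 kept their sign under every alternative and 0 called values reversed. Many of these genes were picked for a small p or a large change on these same arrays, so the kept signs are only a description. With 0 genes called in the main fit, few values could count as reversed. Sizes moved more than signs: without background correction 87 of the 139 differences were smaller by over 1.5 times, as for Fas (0.26), Pidd1 (0.30), Plaur (0.29), Drd1 (-0.26) and Dcn (-0.33), against 0.57 for Tfrc and 0.52 for Phlda3. The medians of the ATF4 targets (-0.25 to -0.16) and of the p53 targets (0.12 to 0.23) kept their sign under 21 alternatives. Of 26 lists, 13 changed the sign of their median under at least 1 alternative, none of them with a median larger in size than 0.129. Probes near background, such as those of Mapkapk3, Clec2d, Trib3 and Cth, give bounds or no fold.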
